A study of Cavia porcellus with 12 samples.

Results

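The genes described here build and run the mitotic machinery: the cyclins and kinase that start mitosis, the kinetochore and its checkpoint, the chromosomal passenger complex, the mitotic kinesins, spindle assembly factors, condensin and cytokinesis proteins. A list of 42 gene symbols was drawn up from these roles, and its members are those symbols that are listed in the normalised expression table deposited for the livers. Of the 42 symbols, 39 were found among the 11896 symbols of that table. MKI67, KIF18B and SGO2 were not in it.

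The study compared the liver of female Dunkin Hartley guinea pigs fed chow with that of animals on a diet rich in fat, sucrose and cholesterol. Animals were 10 weeks old on arrival. The 6 Control animals, labelled healthy, had chow for 25 weeks, and the 6 NASH animals had the high-fat diet for 25 weeks. Each sample was the left lateral lobe of 1 animal, taken without perfusion, and the NASH livers were chosen for bridging fibrosis. Polyadenylated RNA was sequenced and reads were counted per gene.

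Mitosis begins when cyclin-bound CDK1 is activated. Microtubules of the spindle then attach to the kinetochore on each chromosome, the spindle assembly checkpoint holds the anaphase-promoting complex (APC/C) back until attachment is complete, and APC/C activity then releases separase, which cuts the cohesin that holds sister chromatids together. The adult liver is largely quiescent, and most of these transcripts are made for a short window late in the cell cycle.

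Library totals were 16980274 to 28636467 counts in Control and 23704607 to 33091460 in NASH. The members held 0.00593% to 0.00705% of all counts in Control and 0.0202% to 0.073% in NASH. A count of 0 allowed up to 0.214 CPM, the count scaled to library size, in the Control library with the smallest scaled size and up to 0.105 CPM in the NASH library with the smallest, counting error only. Hepatocyte markers summed to between 104700 and 135200 CPM in Control and to between 41330 and 67190 CPM in NASH, and 8 of 10 of them were in the table, none at 0 in all animals of a group. In bulk tissue, fewer cells of a type and less RNA per cell cannot be told apart, and the same is true of more cells and more RNA per cell.

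Most of the mitotic genes in the table were higher in NASH livers. Of the 39 members, 37 were higher in NASH, MAD2L1 was lower and NUSAP1 did not pass the threshold (edgeR's quasi-likelihood test, Benjamini-Hochberg adjusted p under 0.05 over 11896 symbols). By the same test 27.9% of all symbols were higher in NASH and 26.0% were lower. In 36 members every NASH animal lay above every Control animal in CPM, which held for 18.4% of all symbols, and the exceptions were MAD2L1, NUF2 and NUSAP1. When the test asked for an absolute log2 fold change beyond 1, 34 members were still higher in NASH, against 7.17% of all symbols. The median log2 fold change of the members was 3.38, or 3.28 with the genes at 0 in all controls set to their lower bound, and that of all symbols was 0.002.

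The table had been limited to genes with at least 200 counts over the 12 animals. For 23 members the 6 controls together held fewer than 100 counts, so these genes were listed only because the NASH animals held more counts than the controls. Their calls carry no weight as a count, and the totals above include them. The other 16 members had at least 100 counts in the controls. Among these 14 were higher in NASH, against 25.0% of all symbols with as many Control counts, and their median log2 fold change was 1.99. In 14 of the 16 every NASH animal lay above every control, which held for 15.8% of such symbols. In the test against a log2 fold change of 1, 11 of the 16 were higher, against 4.65%.

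The 16 members with at least 100 Control counts were spread unevenly over the roles. Mitotic entry held 1 (PLK1), anaphase 1 (ESPL1), the kinetochore 3 (MAD2L1, SPC25 and CENPF), the passenger complex 2 (INCENP and BIRC5) and the kinesins 3 (KIF11, KIF18A and KIF22). Spindle assembly held 4 (TPX2, NUSAP1, PRC1 and HMMR), chromosome structure 2 (TOP2A and NCAPH) and cytokinesis 0. All but MAD2L1 and NUSAP1 rose.

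**Figure D1:**
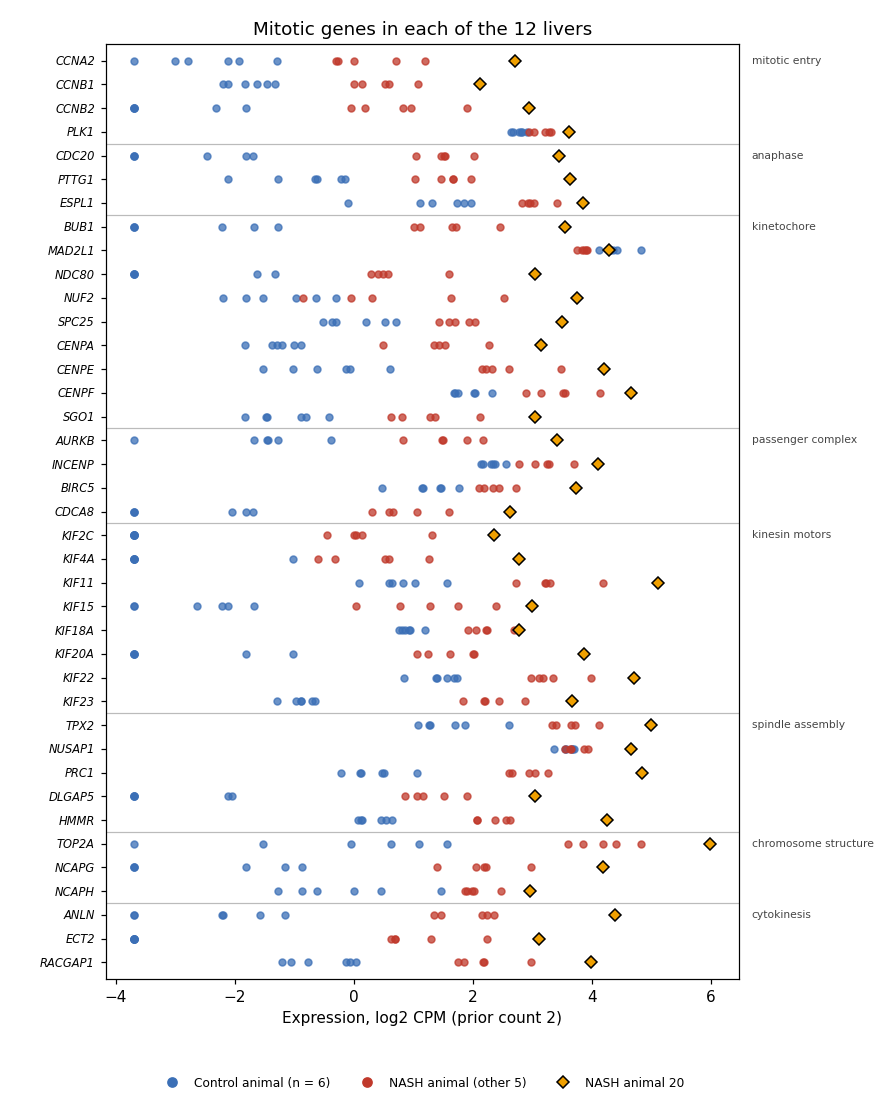
Level of each of the 39 members in each animal, as log2 CPM with a prior count of 2, grouped by role. Blue points are the 6 Control animals, red points are 5 NASH animals and the orange diamond is NASH animal 20, which was the highest NASH animal in all 39 members; points at the far left are counts of 0.

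All 4 genes of mitotic entry rose in NASH, 3 of them among those listed through their NASH counts. CCNA2, CCNB1 and CCNB2 encode the A- and B-type cyclins that bind CDK1, and PLK1 encodes the polo-like kinase that acts from entry through cytokinesis. CCNB2 ranged from 0 to 0.205 CPM in Control, with a median of 0, and from 0.885 to 7.57 CPM in NASH, with a median of 1.77. No NASH animal reached down to the controls, 4 of which had no count, and the log2 fold change was 5.44 ± 0.85 (SE, n = 6 and 6, edgeR adjusted p = 0.000162). CCNB1 ran from 0.14 to 0.321 CPM in Control (median 0.224) and from 0.918 to 4.27 CPM in NASH (median 1.4). Again the groups did not overlap, and the log2 fold change was 3.01 ± 0.45 (edgeR adjusted p = 9.8e-05). CCNA2 rose by 3.85 ± 0.74 on the log2 scale. PLK1 changed least in this role: Control animals lay between 6.15 and 7.4 CPM (median 6.84) and NASH animals between 7.58 and 12.2 CPM (median 9.42). The groups were narrowly apart, with a log2 fold change of 0.48 ± 0.11 (edgeR adjusted p = 0.00288), and PLK1 did not pass the test against a log2 fold change of 1.

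CDC20, the activator that directs the APC/C to its mitotic substrates, and PTTG1 and ESPL1, which encode securin and the separase that it holds inactive, were all higher in NASH, with CDC20 and PTTG1 listed through their NASH counts. For CDC20, the controls lay between 0 and 0.23 CPM (median 0.0513) and the NASH animals between 1.97 and 10.8 CPM (median 2.78). The lowest NASH liver thus exceeded the highest control, and the log2 fold change was 5.30 ± 0.68 (edgeR adjusted p = 3.48e-05). ESPL1 had the smallest change of the trio, with 0.858 to 3.81 CPM in Control (median 2.83) and 7.04 to 14.3 CPM in NASH (median 7.87). That is a log2 fold change of 1.76 ± 0.29 without overlap (edgeR adjusted p = 0.000245). PTTG1 rose by 3.02 ± 0.52 on the log2 scale. Its count row also carries the symbol PTTG2, so both symbols have the same counts and could not be told apart.

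The kinetochore and checkpoint held both the risers and the only member that fell. Of the 9 genes of this role, 6 were listed through their NASH counts, namely BUB1, NDC80, NUF2, CENPA, CENPE and SGO1. BUB1, a checkpoint kinase at the kinetochore, lay between 0 and 0.337 CPM in Control (median 0.0688) and between 1.93 and 11.7 CPM in NASH (median 3.14). All NASH livers were above all controls, with a log2 fold change of 5.27 ± 0.74 (edgeR adjusted p = 7.29e-05). MAD2L1, which encodes the checkpoint protein that binds and restrains CDC20, ran the other way. Its level was 17.3 to 28.3 CPM in Control (median 20) and 13.4 to 19.5 CPM in NASH (median 14.6). The ranges overlapped, and the log2 fold change was −0.47 ± 0.12 (edgeR adjusted p = 0.00599). This direction depended on the scaling: with library size alone, which raised the median log2 fold change of all symbols from 0.002 to 0.476, that of MAD2L1 was 0.014 (edgeR adjusted p = 0.925). Within NASH, MAD2L1 was also highest in animal 20, as were the genes that rose.

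Among the structural parts of the kinetochore, NDC80, NUF2 and SPC25 encode subunits of the NDC80 complex, which grips the microtubule. NDC80 rose by 4.58 ± 0.86 and SPC25 by 2.21 ± 0.41 on the log2 scale. NUF2 varied most between NASH livers, from 0.476 to 13.3 CPM (median 2.1), while the controls lay between 0.14 and 0.734 CPM (median 0.349). It was the only member called higher whose groups overlapped, because NASH animal 2 fell within the Control range. The log2 fold change was 3.38 ± 0.83 (edgeR adjusted p = 0.00405), and NUF2 lost the call with limma-voom (adjusted p = 0.102).

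CENPA, the histone H3 variant that marks the centromere, rose by 3.42 ± 0.46 on the log2 scale. CENPE, a kinesin that moves chromosomes to the spindle equator, rose by 3.43 ± 0.47. For CENPF, a large kinetochore protein, the rise was 1.85 ± 0.28, and for SGO1, the shugoshin that protects centromeric cohesin, it was 3.05 ± 0.48. In none of these 4 genes did the groups overlap, but CENPA, CENPE and SGO1 were listed through their NASH counts.

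The chromosomal passenger complex joins the kinase AURKB to INCENP, BIRC5 (survivin) and CDCA8 (borealin), and it corrects faulty attachments before it moves to the midzone. The 4 subunits all rose, with AURKB and CDCA8 listed through their NASH counts. CDCA8 was at 0 to 0.23 CPM in Control (median 0.0823) and at 1.16 to 6.08 CPM in NASH (median 1.75). Its log2 fold change of 4.46 ± 0.68 was the highest of the complex (edgeR adjusted p = 0.000124). INCENP, the scaffold, was at 4.31 to 5.82 CPM in Control (median 4.92) and at 6.78 to 17.1 CPM in NASH (median 9.48). The groups did not overlap here either, with a log2 fold change of 1.11 ± 0.20 (edgeR adjusted p = 0.000472). AURKB rose by 3.78 ± 0.59 and BIRC5 by 1.43 ± 0.31 on the log2 scale. INCENP and BIRC5 did not pass the test against a log2 fold change of 1.

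All 8 mitotic kinesins in the table rose, each without overlap between the groups, and 5 of them were listed through their NASH counts. KIF2C encodes a microtubule depolymerase at the centromere. It had no count in any Control animal and ranged from 0.655 to 5.02 CPM in NASH (median 0.984). Against the highest limit that a count of 0 allows in a control, its NASH mean was at least 8.52-fold higher. KIF18A, which restrains chromosome movement at the metaphase plate, showed the smallest change of the motors. Its range was 1.61 to 2.21 CPM in Control (median 1.78) and 3.68 to 6.79 CPM in NASH (median 4.62), with a log2 fold change of 1.47 ± 0.17 (edgeR adjusted p = 1.55e-05).

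KIF4A, a chromosome-bound motor, was counted in 1 control only, animal 45, with 10 counts. NASH animals ranged from 0.578 to 6.76 CPM (median 1.4), and the log2 fold change was 4.65 ± 0.98 (edgeR adjusted p = 0.00146). Without control 45 the NASH mean was at least 10.2-fold above the limit of a count of 0. KIF23, a subunit of the centralspindlin complex of the midzone, had the smallest adjusted p of all members, with a log2 fold change of 3.76 ± 0.34 (edgeR adjusted p = 1.94e-06). KIF11, which slides spindle poles apart, rose by 3.05 ± 0.43 on the log2 scale, and KIF15, which backs it up, rose by 4.95 ± 0.67. KIF20A, a midzone motor, rose by 5.34 ± 0.83, and KIF22, a motor that binds chromosome arms, by 2.27 ± 0.31.

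**Figure D2:**
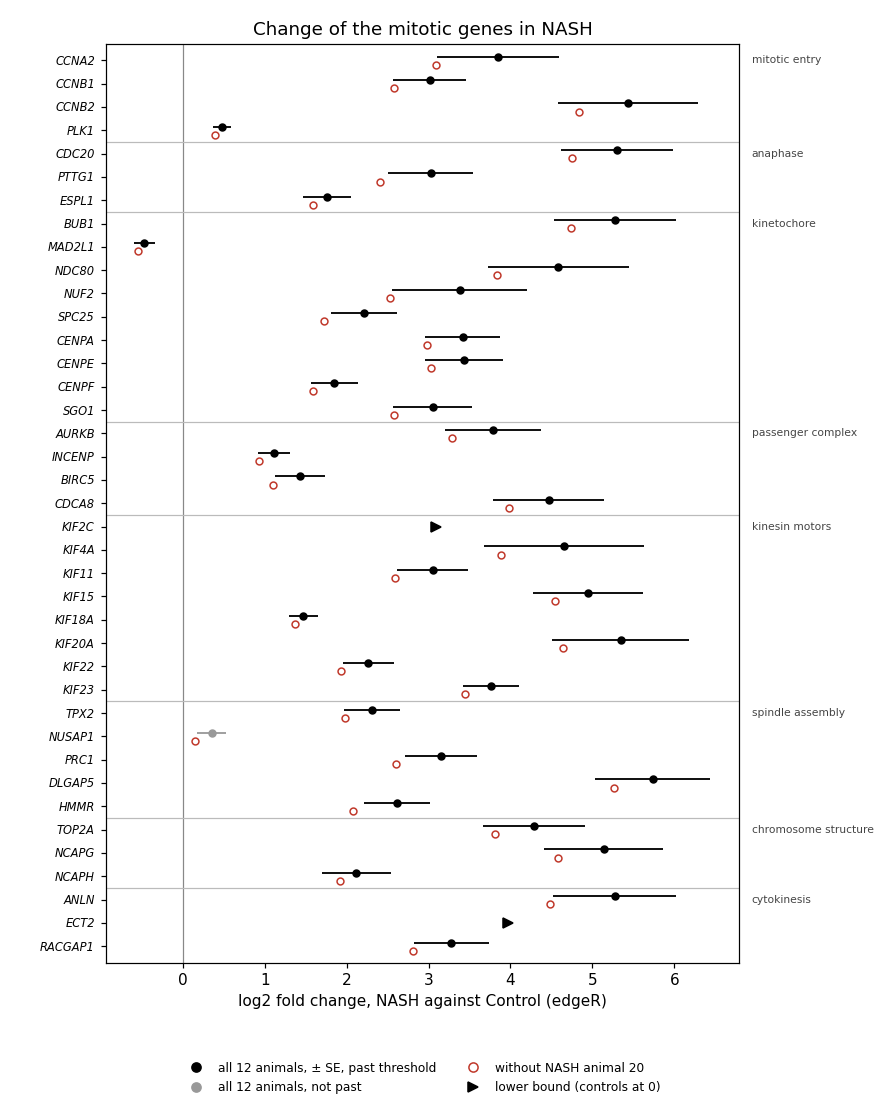
Change of each member in NASH against Control as edgeR's log2 fold change with its SE, grouped by role, and the same value without NASH animal 20 as an open circle. MAD2L1 is the only member below 0, NUSAP1 in grey did not pass the threshold, and triangles give the lower bounds of KIF2C and ECT2, which had no Control counts.

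Of the 5 spindle assembly and bundling genes, 4 rose, with DLGAP5 listed through its NASH counts. DLGAP5, which stabilises kinetochore fibres, lay at 0 to 0.165 CPM in Control (median 0) and at 1.73 to 8.2 CPM in NASH (median 2.46). With 4 controls at 0 and no overlap, its log2 fold change was 5.74 ± 0.71 (edgeR adjusted p = 2.41e-05). NUSAP1, which bundles microtubules near chromosomes, lay at 10.2 to 12.8 CPM in Control (median 12.1) and at 11.7 to 25.1 CPM in NASH (median 13.5). The ranges overlapped, and the log2 fold change of 0.35 ± 0.17 did not pass the threshold (edgeR adjusted p = 0.103), although with library size alone it was 0.83 (edgeR adjusted p = 0.00108). Without NASH animal 20 it was 0.15 (edgeR adjusted p = 0.205). Its row is shared with the symbol AC087721.2, so the value is uncertain. TPX2, the activator of Aurora A on the spindle, rose by 2.31 ± 0.34 on the log2 scale. PRC1, which crosslinks the midzone, rose by 3.15 ± 0.44, and HMMR, a spindle and hyaluronan-binding protein, by 2.62 ± 0.40.

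TOP2A, the topoisomerase that untangles sister DNA, and the condensin I subunits NCAPG and NCAPH, which compact mitotic chromosomes, all rose without overlap. Among them NCAPG was listed through its NASH counts. TOP2A lay between 0 and 2.88 CPM in Control (median 1.18) and between 12.0 and 63.5 CPM in NASH (median 19.6). The log2 fold change was 4.29 ± 0.62 (edgeR adjusted p = 9.32e-05). NCAPG was at 0 to 0.466 CPM in Control (median 0.103) and at 2.55 to 18.2 CPM in NASH (median 4.54), a log2 fold change of 5.14 ± 0.73 (edgeR adjusted p = 7.62e-05). NCAPH, its partner in the complex, was at 0.337 to 2.67 CPM in Control (median 0.747) and at 3.57 to 7.67 CPM in NASH (median 3.92). Its log2 fold change was 2.12 ± 0.42 (edgeR adjusted p = 0.00105).

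The 3 cytokinesis genes were all listed through their NASH counts, so that their rise together is no result about the role. ECT2, the exchange factor that switches RhoA on at the equator, had no count in any control, and ran from 1.47 to 8.57 CPM in NASH (median 1.95). Its NASH mean was at least 15.6-fold above the limit of a count of 0. RACGAP1, the partner of KIF23 in centralspindlin, lay between 0.357 and 0.947 CPM in Control (median 0.671) and between 3.3 and 15.8 CPM in NASH (median 4.45). All NASH livers lay above all controls, with a log2 fold change of 3.28 ± 0.45 (edgeR adjusted p = 6.13e-05). ANLN, the anillin that links the contractile ring to the membrane, rose by 5.27 ± 0.75 on the log2 scale.

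The rise was uneven between NASH animals. Animal 20 was the highest NASH animal in 39 of 39 members, which was so for 22.0% of all symbols. Among symbols with at least 100 Control counts the share was 21.2%, and 16 of the 39 members are such symbols. Animal 41 was second in 32 members. The lowest NASH animal was animal 2 in 21 members, animal 11 in 10, animal 65 in 5 and animal 9 in 3. Summed over the members, animal 20 reached 600.6 CPM and animal 41 reached 301.9 CPM. The other NASH livers held 162.7, 185.6, 195.5 and 213.9 CPM, and the controls 67.8 to 83.1 CPM. Every NASH liver was thus above every control in the sum, with animal 20 the highest and animal 41 next.

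For each member the level in animal 20 was divided by the median of the other 5 NASH animals. The median of this ratio was 3.71, against 0.999 over all symbols. In the 16 members with at least 100 Control counts it was 2.39, against 0.995 over such symbols, and in the other 23 it was 3.99. It was lowest for PLK1 at 1.33 and highest for NUF2 at 11.5. The ratio passed 2 in 33 members and in 2.29% of all symbols. It did so in 10 of the 16 members with at least 100 Control counts and in 1.25% of such symbols. Among the other 5 animals, the highest was a median of 2.22 times the lowest. The coefficient of variation beyond counting error had a median of 0.727 over the members in NASH and of 0.118 over all symbols. Without animal 20 it was 0.307 and 0.11. In the 16 members with at least 100 Control counts it was 0.502 with animal 20 and 0.175 without, against 0.113 and 0.106 over such symbols. In Control it was 0.392 over the members and 0.138 over all symbols, at counts too few in many members for a firm value.

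The values were computed again without animal 20. Then 37 members were higher in NASH, where 26.8% of all symbols were, and the median log2 fold change was 2.81. Of the 16 members with at least 100 Control counts, 14 were higher, against 23.9% of such symbols, and their median was 1.66. In 36 members the other 5 NASH animals were all above every control, as in 19.2% of all symbols, and among the 16 members this held for 14, against 16.6% of such symbols. MAD2L1 stayed lower, at −0.55 (edgeR adjusted p = 0.00157). By animal, the median over members of log2 CPM above the Control mean was 2.29 in animal 2, 2.43 in animal 65, 2.61 in animal 11, 2.71 in animal 9, 3.54 in animal 41 and 4.53 in animal 20. By this measure controls differed less, from −0.28 in animal 56 to 0.41 in animal 45. The prior count of 2 narrows differences between low counts, however. Control 45 was the highest control in 14 members. With ties at 0 left out, no control was the lowest in more than 6.

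**Figure D3:**
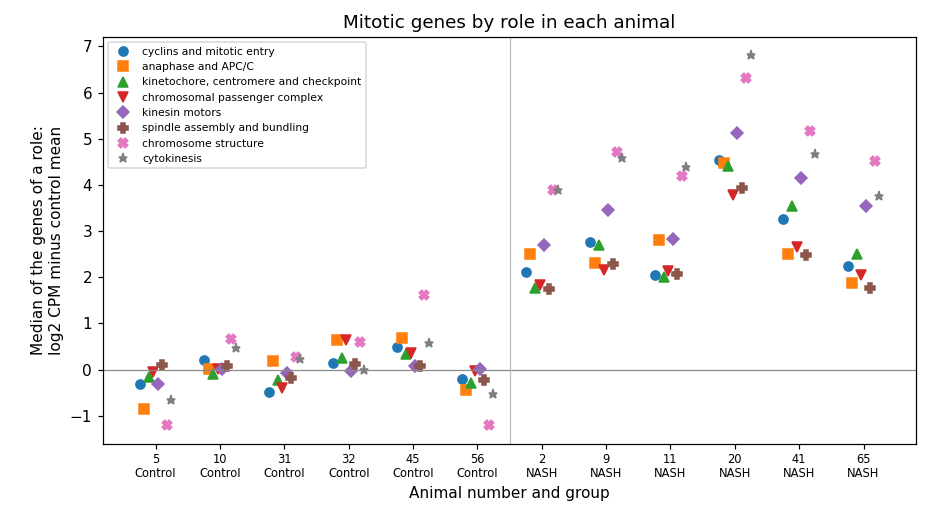
Median over the genes of each role of log2 CPM (prior count 2) minus the Control mean, for each animal. Every role is above 0 in all 6 NASH animals and highest in animal 20, and the roles cannot be ranked against each other, since 23 of the 39 genes, all 3 of cytokinesis among them, were listed through their NASH counts.

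Markers of other cell types that a liver sample can hold were read in the same fit, beside the mitotic genes. Erythroid markers rose in 9 of the 10 found of 16 listed, and 5 of the 10 were listed through their NASH counts. SPTB, which encodes a spectrin of the red cell membrane skeleton, did not pass, with a log2 fold change of 0.63 ± 0.33. HBA1 and HBA2 share a count row. The summed level of the list was 71.7 to 204 CPM in Control and 472 to 4742 CPM in NASH. It was highest in animals 41 and 65, while animal 20 held 728 CPM. With animals 41 and 65 left out, a choice made after seeing the data, 37 members were higher and 1 lower, against 25.3% of all symbols higher. Of the 16 members with at least 100 Control counts, 14 were higher, against 22.3% of such symbols. The remaining NASH animals still held 472 to 763 CPM of erythroid markers, above every control, so leaving these animals out does not separate the erythroid rise from the mitotic genes.

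Cholangiocyte markers (7 of 9 found, 6 higher) summed to 93.3 to 142 CPM in Control and 335 to 588 CPM in NASH. Stellate and myofibroblast markers (9 of 9 found, 7 higher and 1 lower) summed to 445 to 533 CPM in Control and 1213 to 2747 CPM in NASH. Animal 20, the liver with the highest mitotic levels, was also the highest in both sums, and it was the highest NASH animal in 5 of 9 stellate and 3 of 7 cholangiocyte genes. As the median over markers of log2 CPM above the Control mean, cholangiocyte markers were highest in animal 20, at 3.33, and stellate markers in animal 2, at 2.104, against 1.775 in animal 20. Animal 20 had the lowest hepatocyte sum of all 12 animals at 41330 CPM. Of the hepatocyte markers, 7 of 8 were lower in NASH.

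Macrophage markers (9 of 11 found, 4 higher and 1 lower) summed to 333 to 669 CPM in Control and 1005 to 1402 CPM in NASH, with animal 41 the highest. GPNMB, a lysosomal glycoprotein, made up most of that rise, with a mean of 54.0 CPM in Control and 498 CPM in NASH, and the median log2 fold change of the list was 0.41. T and NK cell markers (9 of 11 found, 1 higher and 3 lower) summed to 145 to 242 CPM in Control and 77.2 to 154 CPM in NASH. For B and plasma cells 3 of 4 found of 9 listed were higher, for granulocytes 2 of 3 of 7 listed, and for endothelial cells 3 of 7 found of 8 listed were higher and 2 lower. Of these counts, 1 macrophage, 1 B cell, 2 granulocyte and 1 cholangiocyte marker had been listed through their NASH counts. No marker was at 0 in all animals of a group. The part of each cell type in the mitotic genes was not tested.

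**Figure D4:**
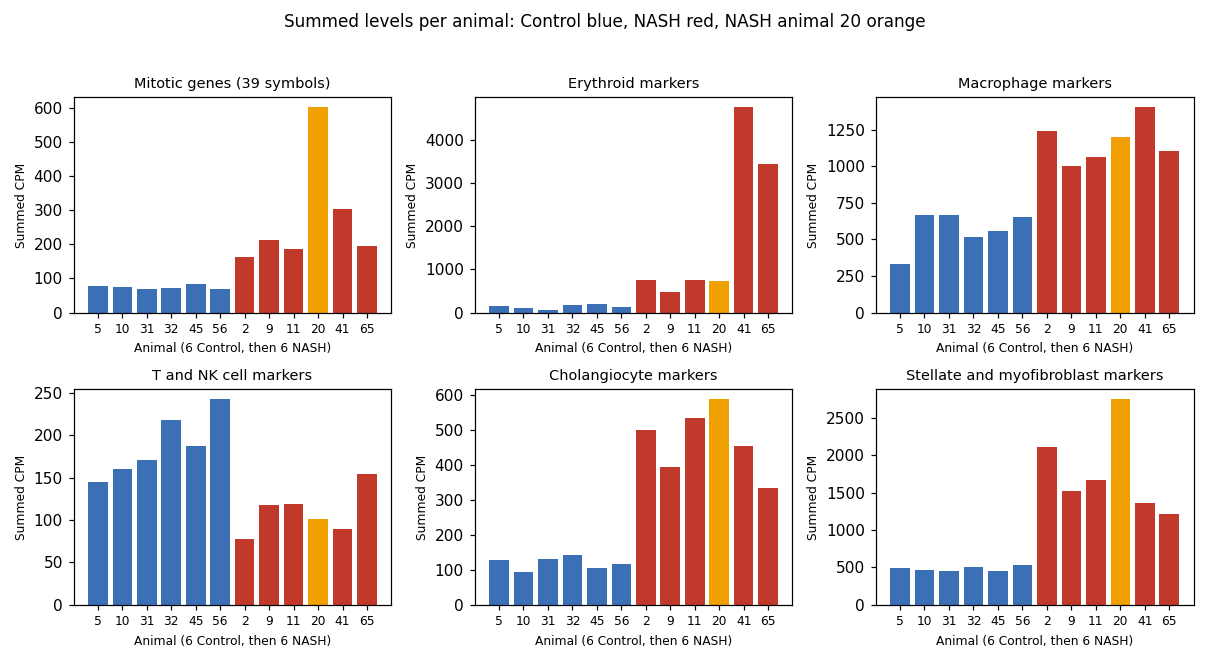
Summed CPM per animal of the 39 mitotic genes and of 5 marker lists, with Control in blue, NASH in red and NASH animal 20 in orange. Mitotic genes peak in animal 20, erythroid markers in animals 41 and 65, and cholangiocyte and stellate markers have their highest sums in animal 20 with a flatter profile.

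Other genes of the pathway, which are not members, were taken list by list. The limit of 200 counts bears on them too, so each count of genes that rose is followed by that among genes with at least 100 Control counts. Of all symbols with as many Control counts, 25.0% were higher in NASH and 27.5% lower. Of 28 further kinetochore, centromere and checkpoint genes found of 35 listed, 18 rose, 1 fell and 9 did not pass. With at least 100 Control counts, 11 of 20 rose. CENPK, a subunit of the inner kinetochore, was highest with a log2 fold change of 4.25 ± 0.97 (edgeR adjusted p = 0.0026), and CENPM, another inner subunit, was lowest at −0.71 ± 0.22 (edgeR adjusted p = 0.017). Of 8 entry kinases, phosphatases and their regulators found of 12, 6 rose, from TRIP13, a checkpoint ATPase, at 4.94 ± 0.83, to PLK4, the centriole kinase, which did not pass at 0.04 ± 0.22, and 3 of 5 with enough Control counts rose. Of 16 other spindle, centrosome and cytokinesis genes found of 20, 14 rose and none fell, and 7 of 9 rose among those with enough Control counts. DEPDC1 was highest at 4.68 ± 0.60, and STIL, a centriole protein, did not pass at 0.21 ± 0.20. In this list animal 20 was the highest NASH animal in 16 of 16 genes.

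Condensin and cohesin shape chromosomes. Of 15 condensin and cohesin genes, 8 rose and 1 fell, with a median log2 fold change of 0.29, and 7 of 14 with enough Control counts rose. NCAPG2, of condensin II, rose by 2.82 ± 0.34, and PDS5A, a cohesin regulator, fell by 0.18 on the log2 scale (edgeR adjusted p = 0.036). For the APC/C core with its E2 and inhibitor, 15 genes were found of 18, of which 2 rose, 2 fell and 11 did not pass, and 1 of 14 with enough Control counts rose. FBXO5, the inhibitor EMI1, rose by 3.40 ± 0.52 and ANAPC13, a core subunit, fell by 0.52 on the log2 scale (edgeR adjusted p = 0.047). The list had a median log2 fold change of −0.08.

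The transcription factors that control late cell-cycle genes (the MMB and DREAM complexes and FOXM1) were found in 13 of 15 cases. Of these, 4 rose and 1 fell, and 2 of 11 with enough Control counts rose. FOXM1, a forkhead factor that acts on late cell-cycle promoters, lay at 0 to 0.412 CPM in Control (median 0.24) and at 2.14 to 10.5 CPM in NASH (median 3.19). It rose by 4.33 ± 0.63 on the log2 scale without overlap (edgeR adjusted p = 9.5e-05), with animal 20 the highest, and it was listed through its NASH counts, as were CENPK, TRIP13, DEPDC1, FBXO5 and RRM2. NFYB, a subunit of the factor that binds CCAAT boxes, fell by 1.03 on the log2 scale (edgeR adjusted p = 0.0023). Over these and the mitotic lists above, 95 genes were found of 115, of which 52 rose, 5 fell and 38 did not pass, and animal 20 was the highest NASH animal in 65. Among the 73 with enough Control counts, 31 rose and 5 fell.

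Genes of the DNA replication fork rose in 11 of 15 cases and fell in 2, and 6 of 10 with enough Control counts rose. RRM2, a subunit of ribonucleotide reductase, was highest at 5.28 ± 0.80, and GINS1, part of the replicative helicase, fell by 0.49 on the log2 scale (edgeR adjusted p = 0.0032). CDK inhibitors and p53 targets were found in 12 of 15 cases, of which 6 rose and 2 fell, all with enough Control counts. GADD45A, a stress-induced gene, rose by 1.98 ± 0.21 and GADD45B fell by 1.24 on the log2 scale (edgeR adjusted p = 3.5e-05). Animal 20 was the highest NASH animal in 13 of the 15 replication genes and in 1 of the 12 inhibitors and p53 targets. Over all symbols the share was 22.0%.

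**Figure D5:**
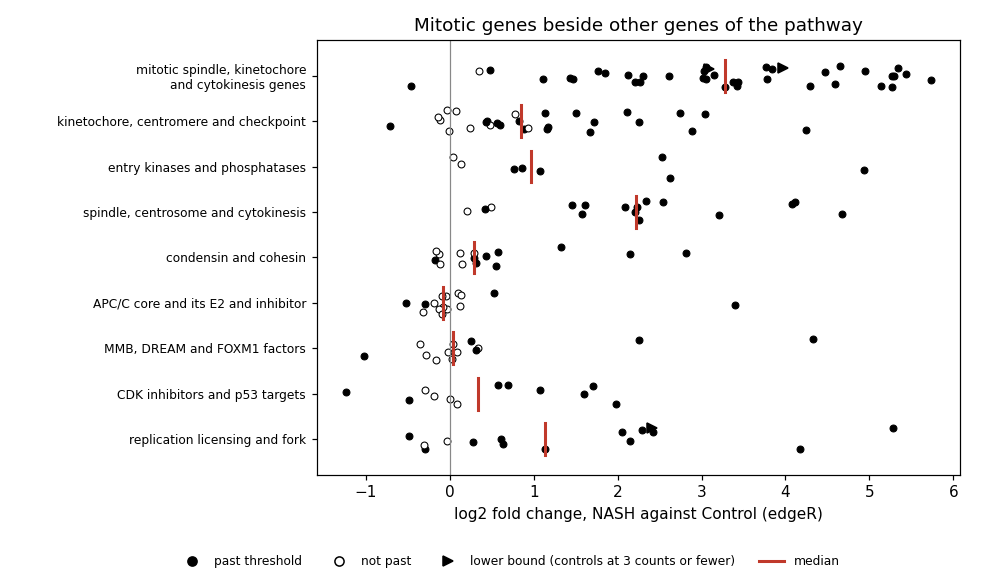
Log2 fold change of NASH against Control for each gene of the mitotic set and of 8 further lists, with filled points past the threshold, open points not past it, triangles for lower bounds and a red line at the median. The mitotic set has its median at 3.28, but 23 of its 39 genes were listed through their NASH counts and the other 16 have a median of 1.99, so the medians of the lists cannot be compared directly.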

How the data were processed

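Per the labels, liver RNA of 6 Control and 6 NASH guinea pigs, 1 library per animal, was enriched with oligo-dT beads. The authors trimmed reads with Trimmomatic 0.38.0, aligned them to the guinea pig genome with HISAT2 2.1.0, leaving out reads with several matches, assembled and counted genes with StringTie 1.3.6, and deposited a table of counts per gene. They also deposited regularised log2 values (rlog, from DESeq2) by human orthologue symbol, limited to genes with at least 200 counts. The count table carries no symbols. Each symbol was therefore paired with the count row whose rlog, recomputed with DESeq2 1.42.0 in R 4.3.3, equalled the deposited value, to within a log2 difference of 8.35e-07. In all, 11031 rows served 11896 symbols, and 1515 symbols share a row with another. All 39 members came from loci that StringTie assembled.

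Counts were tested with edgeR 4.0.16 (quasi-likelihood F test, robust, TMM factors, library size over the whole count table), and p-values were adjusted by Benjamini-Hochberg over 11896 symbols at a threshold of 0.05. CPM values use TMM-scaled library sizes, and log2 CPM a prior count of 2. The SE is the log2 fold change over the root of F. The variation beyond counting error is the variance of CPM less its Poisson part, and 2 members at 0 in all controls have no Control value. A count of 0 was given a limit of 3 counts per library. Alternatives were other factors, DESeq2, limma-voom (limma 3.58.1), other filters, thresholds and tests, and leaving out each animal. Figures were drawn with matplotlib 3.10.9.

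The members, the other lists and the tests were chosen with earlier results of these data known. All members could be named. Ranges were given for the highest and lowest of each role, for members not past the threshold or lower, for those at 0 in the controls, and for CCNB1, TOP2A and ECT2; those of NUF2 and KIF4A were added after their values were seen. In the other pathway lists the highest and lowest genes were named, and 1 marker gene is not reported here. Animal numbers mark separate animals. Promoter motifs were not analysed here.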

Additional observations from a re-analysis of the deposited data

Results flagged for a closer look

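Within each group of 6 animals, the gap between the most extreme animal and its neighbour was set against the whole range of log2 CPM. This was done for each member, for the median of the members and for the summed level of each marker list, in Control and in NASH. The share passed the critical value of Dixon's test in 9 of 98 groups of values. Chance gives about 1 in 20 for independent groups, but these share the same 12 animals, so the number cannot be read against it. All 9 were values of single members, and the median of the members did not pass. Animal 20 was the far value in 8 NASH groups. The share was 0.747 for HMMR, 0.708 for PRC1, 0.707 for SPC25, 0.693 for MAD2L1, 0.666 for ANLN, 0.66 for KIF20A, 0.659 for NUSAP1 and 0.639 for PTTG1. MAD2L1 was among them although it was lower in NASH. In Control, KIF4A had a share of 1.0, since animal 45 held all 10 counts of that group.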

How the results depend on the processing

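No paired analysis was possible because the animal numbers of the groups are not shared. Left out in turn, each animal left 37 members higher and MAD2L1 lower, and the median log2 fold change ran from 2.81 without NASH animal 20 to 3.55. With library size alone, 38 members were higher, against 63.9% of all symbols, and 0 lower, the median was 3.87 (0.476 over all symbols), MAD2L1 turned to 0.014 and NUSAP1 passed at 0.83. In the test against a log2 fold change of 1, 0 members were lower, since PLK1, MAD2L1, INCENP and BIRC5 lost their calls. With limma-voom NUF2 lost its call. The other alternatives changed no call of a member. The median variation beyond counting error in NASH, 0.727, ran from 0.307 without animal 20 to 0.835, and as the SD of deposited rlog values, which are shrunken, it was 0.392. The cause of these shifts was not tested beyond what each alternative changes by construction. With 22 members under 1 CPM in every control, depth limits their Control levels and the size of their fold changes.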
